A study of Mus musculus with 5 samples.

Results

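The genes Fgf5, Otx2, Pou3f1, Tcf15, Foxd3, Zic2, and Grhl2, which mark or drive the formative and primed states of pluripotency, were followed through 5 mouse RNA-seq libraries. They were chosen by symbol from a fixed list, and all 7 were found among the 24421 genes of both deposited tables. The first of these tables held 1 library of MEFs, 1 of iPSCs, and 1 of V6.5 mESCs without any shRNA, and the other held 1 library of V6.5 cells with a nontargeting control shRNA (NTC) and 1 with an shRNA against Gldc (shGldc). MEFs are fibroblasts, here from CF-1 mouse embryos, and were grown in serum without leukaemia inhibitory factor. The iPSCs were a purchased line of reprogrammed cells, and V6.5 is a mouse embryonic stem cell line from a male hybrid embryo. Per the culture notes, ES and iPS cells grew without feeders in a medium of serum replacement with leukaemia inhibitory factor, a cytokine that holds mouse stem cells in a naive-type state. The study's methods also describe ES and iPS cultures on feeder cells in serum, without saying which was sequenced, while the culture notes name the feeder-free condition only. Gldc is the glycine-cleaving enzyme of the glycine cleavage system, and the knockdown comparison asks what its loss does to mESCs. The labels do not say which of the purchased Gldc shRNAs was used, though the deposited column is headed sh3, and the NTC and shGldc cells share the parental line and the vector type.

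Mouse pluripotent cells are described along a path from a naive state, like the epiblast before implantation, through a formative state to a primed state, like the epiblast after implantation. Along this path the naive factors go down while Otx2, Pou3f1, Fgf5, and their partners come up, and the core factors Pou5f1 and Sox2 stay on while their enhancer use is rewired. Otx2 and Foxd3 take part in that rewiring, Zic2 and Grhl2 act at the newly used enhancers, and Fgf5 is the classic RNA marker of the epiblast that has left the naive state. Formative and primed genes are nevertheless read at low or uneven levels in mESC cultures, which hold cells at different points of the path.

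Each condition was 1 library, so no difference below has a replicate check, an SE, or a p-value, and the condition, the line, and the library cannot be told apart. The deposited unit was FPKM, the fragments counted on a transcript scaled to its length and to the depth of the library, so levels can be set beside each other between genes. A ratio is a difference of log2(FPKM + 0.1), a gene entered a comparison when either library had it at an FPKM of 1 or more, and "higher" or "lower" in a count means at least 2-fold on that scale. The tables were made separately. A comparison of NTC or shGldc with untreated V6.5 cells therefore also holds any difference between the tables.

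The knockdown label was checked on Gldc itself, which was at an FPKM of 74.7 in NTC and 2.07 in shGldc, against 59.7 in untreated V6.5 cells, 70.8 in iPSCs, and 0.123 in MEFs. The library labels were also checked on marker lists. All 7 pluripotent cell markers, Pou5f1, Sox2, and Nanog among them, were at an FPKM of at least 1 in each of the 4 stem cell libraries, while 1 of 7 was in MEFs. All 10 fibroblast markers were in MEFs, against 8 in untreated V6.5 cells and 4 in each of the other stem cell libraries, and Col3a1, Postn, Lum, and Dcn were listed at 0 in both NTC and shGldc. Depth, estimated from the steps between low values, was 22100000 to 24600000 fragments in the first table. It came to 29100000 in NTC and 28900000 in shGldc. A step of double the size fitted 32 values in NTC against 25 for the step used, and 28 against 32 in shGldc. This leaves a 2-fold doubt about these depths and the fragment numbers taken from them.

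For 3 of the 7 genes RefSeq start sites were at hand, and the 250 bases before a start site are shown. Which start the counted RNA used is not known from FPKM values. Sequences are from GRCm38.p6, the assembly also called mm10, with motif matches in capitals. Otx2 has 4 listed RefSeq starts, and the one shown, on the minus strand of chr14:48667645-48667894, is the most upstream of these 4. The annotated Otx2 gene reaches 48673819, further upstream, and 1 of its 11 transcripts starts at the site shown. Foxd3 is on the plus strand at chr4:99656049-99656298 and Fgf5 on the plus strand at chr5:98253934-98254183.
Otx2: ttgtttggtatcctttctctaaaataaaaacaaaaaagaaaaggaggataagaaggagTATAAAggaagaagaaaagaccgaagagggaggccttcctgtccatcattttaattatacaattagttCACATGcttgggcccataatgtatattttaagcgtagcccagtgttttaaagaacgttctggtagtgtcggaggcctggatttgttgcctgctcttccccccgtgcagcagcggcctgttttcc
Foxd3: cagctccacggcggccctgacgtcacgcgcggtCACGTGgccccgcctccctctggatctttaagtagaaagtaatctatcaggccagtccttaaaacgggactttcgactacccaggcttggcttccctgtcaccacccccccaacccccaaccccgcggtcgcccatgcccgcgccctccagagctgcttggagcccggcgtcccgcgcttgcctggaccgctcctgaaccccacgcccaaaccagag
Fgf5: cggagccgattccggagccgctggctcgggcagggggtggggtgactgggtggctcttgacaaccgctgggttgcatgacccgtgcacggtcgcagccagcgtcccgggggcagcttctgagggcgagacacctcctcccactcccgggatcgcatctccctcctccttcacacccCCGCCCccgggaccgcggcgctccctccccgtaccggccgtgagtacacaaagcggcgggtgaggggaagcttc
The capitals mark a TATA box (TATAAA) and an E box (CANNTG) before Otx2, an E box before Foxd3, and a GC box (GGGCGG, here on the other strand) before Fgf5. Positions were read on both strands, in windows that run 50 bases past the start, where Fgf5 has a TATA box that is not shown. The letters are common ones, since an E box was found in 72.31% of all 32851 RefSeq windows of this length, a GC box in 35.66%, and TATAAA in 13.62%. The CpG content set the genes apart more clearly, with 29 CpG sites in the 300 bases at Fgf5, 25 at Foxd3, and 6 to 16 in the 4 windows at Otx2, against a median of 7 over all windows. The octamer ATGCAAAT, the SOX core CATTGT, and the GRHL core AACCNGTT, present in 1.74%, 12.57%, and 2.09% of all windows, were in none of the 6 windows of these genes. The OTX core TAATCC, in 7.06% of all windows, was in 1 of the Otx2 windows, and CCAAT, in 37.41%, was in another. A match or its lack describes these letters in this window and no more.

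**Figure D1:**
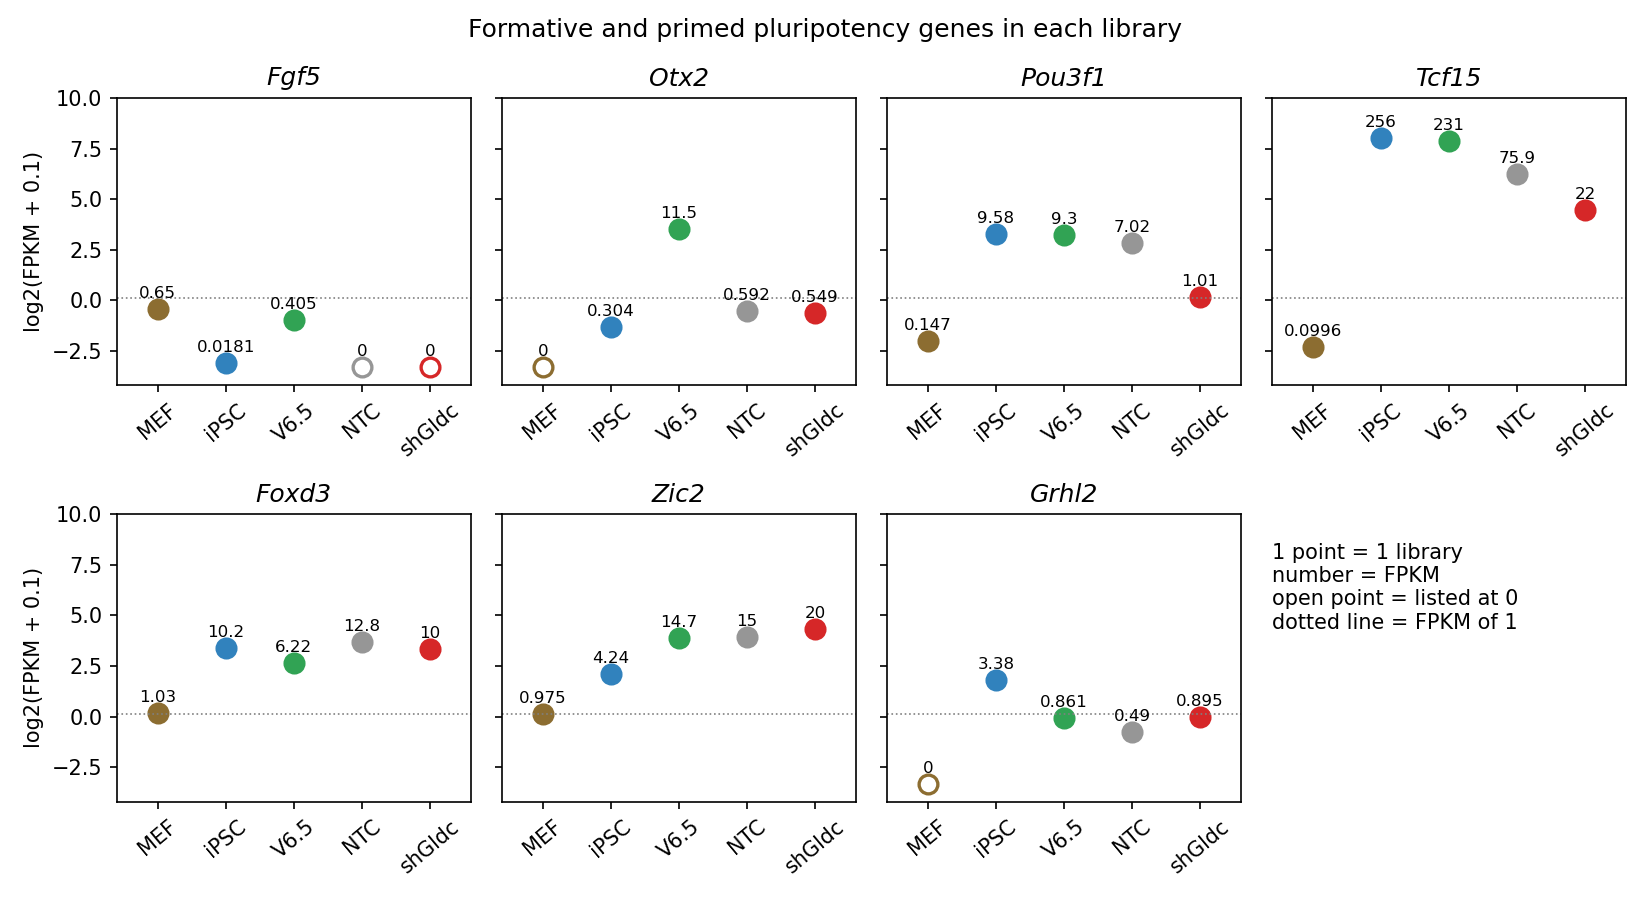
FPKM of the 7 genes in the 5 libraries, plotted as log2(FPKM + 0.1), 1 point per library, with the FPKM written above each point, open points for genes listed at 0, and a dotted line at an FPKM of 1. Tcf15 reaches 256.1 in iPSCs, Otx2 is above the line only in untreated V6.5 cells, and Fgf5 is below it in every library.

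Across the stem cell libraries the 7 genes did not move as a block. Tcf15 was the most abundant, though in shGldc it was at 22.0 beside Zic2 at 20.0, Foxd3 and Zic2 were at intermediate levels, as was Pou3f1 except in shGldc, Otx2 was at an intermediate level in 1 library only, Grhl2 was near or below an FPKM of 1 except in iPSCs, and Fgf5 was below 1 throughout. An FPKM of at least 1 was found for 5 of the 7 genes in iPSCs, 5 in untreated V6.5 cells, 4 in NTC, 4 in shGldc, and 1, Foxd3, in MEFs. Over all 24421 genes that share was 45.67% to 48.45% in the 5 libraries. The 4 of 7 in NTC and shGldc lie nearest to that share, the 5 of 7 in iPSCs and V6.5 cells lie above it, and the 1 of 7 in MEFs lies below it.

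Fgf5 encodes a secreted fibroblast growth factor and was the only signalling ligand among the 7. Its FPKM was 0.65 in MEFs, 0.0181 in iPSCs, and 0.405 in untreated V6.5 cells, and it was listed at 0 in both NTC and shGldc. The highest of these values was thus in the fibroblasts. At the estimated depth the values stand for about 40 fragments in MEFs, 25 in untreated V6.5 cells, and 1 in iPSCs, and 3 fragments would give 0.0413 in NTC and 0.0415 in shGldc. With no library at an FPKM of 1, Fgf5 entered none of the comparisons. The gene lies at chr5:98254184-98277030 on the plus strand, with 3 exons in its longest transcript.

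Otx2, a paired-type homeodomain factor needed for the exit from the naive state and later for the forebrain, was listed at 0 in MEFs and was at an FPKM of 0.304 in iPSCs, 11.5 in untreated V6.5 cells, 0.592 in NTC, and 0.549 in shGldc. One library stands alone: untreated V6.5 cells had 38.0 times the FPKM of iPSCs and 19.5 times that of NTC, the same line with a control vector. Among 12323 genes compared between iPSCs and V6.5 cells, Otx2 ranked 8 by how much lower it was in iPSCs, and among 12048 genes compared between NTC and V6.5 cells it ranked 51. The estimates behind these values are 736 fragments in V6.5 cells (exact 95% Poisson interval 684 to 791), 17 in iPSCs (9.9 to 27.2), and 45 in NTC (32.8 to 60.2). These intervals cover counting error only, and leave out the 2-fold doubt about the NTC depth.

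Otx2 lies at chr14:48657677-48673819 on the minus strand with 11 annotated transcripts, and 154 of its exon bases overlap the lincRNA Otx2os1 on the other strand, which was listed at 0 in all 5 libraries. Reads from the overlap could not be assigned by strand here, as the strand setting is not given in the sources used here. Of its 50-nucleotide stretches, 2.75% are shared with another annotated gene, Gm49154. Its paralog Otx1 was higher in iPSCs than in V6.5 cells, where it was at 0.45, with a log2 ratio of 1.54, and Crx was at or near 0 in all 5.

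The genes whose profile over the 5 libraries lay nearest to that of Otx2, by Euclidean distance of centred log2 values among 13656 genes, were Fgf15 at 1.87, Pygm at 2.00, and Lhfpl5 at 2.05. Fgf15, a growth factor of the neural plate and midbrain, was at an FPKM of 7.29 in untreated V6.5 cells, 0.68 in iPSCs, 2.50 in NTC, and 1.21 in shGldc. Of the 14 neural markers 5 were at an FPKM of at least 1 in V6.5 cells, 6 in iPSCs, 4 in NTC, 5 in shGldc, and 4 in MEFs. Between iPSCs and V6.5 cells 7 entered and all passed 2-fold, but with no common direction. In iPSCs 3 were higher and 4 lower, beside 10.1% and 7.44% of all genes. Their summed FPKM was 87.2 in V6.5 cells and 43.6 to 56.7 elsewhere, but this order rests on the neuronal tubulin Tubb3, at 62.7 in V6.5 cells and 10.7 to 36.5 elsewhere. Without Tubb3 the sum was 24.4 in V6.5 cells, 25.5 in iPSCs, 24.2 in NTC, 16.7 in shGldc, and 32.9 in MEFs.

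Sox1, which defines the neural plate, was at 7.62 in V6.5 cells, 1.66 in iPSCs, 1.43 in NTC, 1.15 in shGldc, and was listed at 0 in MEFs. Pax6 was at 1.15, 0.292, 0.166, 0.0725, and 0.0256 in V6.5 cells, iPSCs, NTC, shGldc, and MEFs. Other genes of the list did not follow that order: Olig2, a factor of motor neuron and oligodendrocyte progenitors, was at 6.54 in V6.5 cells, 14.6 in iPSCs, 15.5 in NTC, 6.62 in shGldc, and 0.117 in MEFs, and the proneural gene Neurog1 was at 0.895, 3.15, 0.684, and 3.35 in these stem cell libraries and listed at 0 in MEFs. Some fibroblast genes also moved with this library. Col1a1, at 3672 in MEFs, was at 20.5 in V6.5 cells or 0.559% of the MEF level, against 0.0034% to 0.0456% in iPSCs, NTC, and shGldc. The summed fibroblast list was at 168 in V6.5 cells, 87.1 in iPSCs, 124 in NTC, 93.7 in shGldc, and 8350 in MEFs, and without fibronectin, Fn1, it was at 51.9, 13.7, 11.4, 5.45, and 7095. Thy1, also on the list, was at 5.63 in V6.5 cells, 8.30 in iPSCs, and 6.95 in NTC, and Pdgfrb was at 2.42 in V6.5 cells and 2.88 in NTC. The part of the neural and fibroblast genes in the Otx2 value was not tested, and in a bulk library more cells with Otx2 and more Otx2 RNA per cell cannot be told apart.

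**Figure D2:**
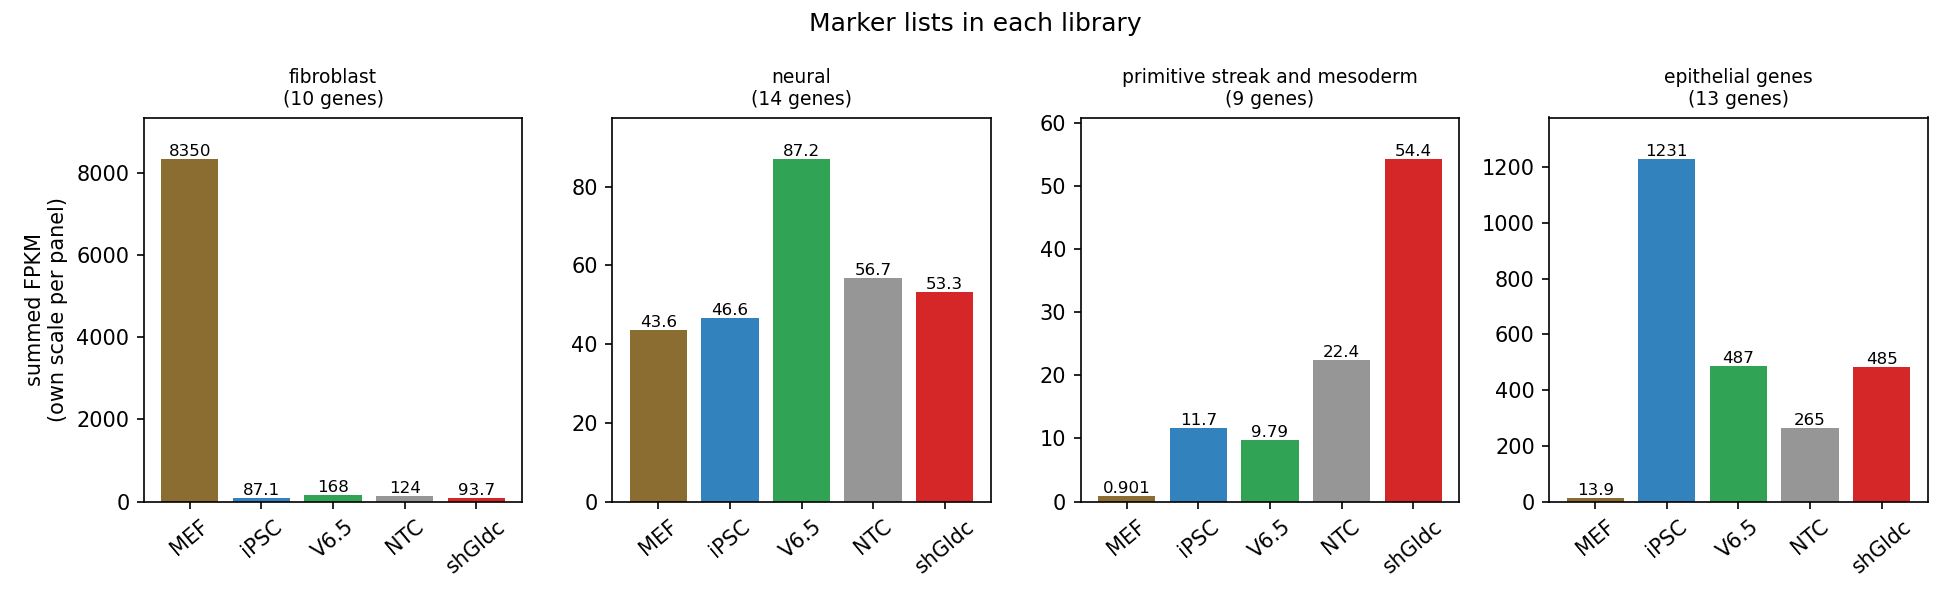
Summed FPKM of 4 marker lists in each of the 5 libraries, as bars from 0 with a separate linear axis per panel. The neural sum reaches 87.2 in V6.5 cells, of which 62.7 is Tubb3, and without that gene V6.5 cells are not highest. The primitive streak and mesoderm sum is highest in shGldc at 54.4, of which 33.3 is Cdx2. The epithelial sum is highest in iPSCs at 1231, of which 387 is Cldn4, 234 is Krt18, and 171 is Krt8.

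Pou3f1, also called Oct6, is a POU-domain factor of the post-implantation epiblast and of neural progenitors. Its FPKM was 0.147 in MEFs, 9.58 in iPSCs, 9.30 in untreated V6.5 cells, 7.02 in NTC, and 1.01 in shGldc. The stem cell libraries without Gldc shRNA sat close together, between 7.02 and 9.58, and the shGldc library stood below them. shGldc held 14.4% of the NTC level, a log2 ratio of -2.68, with about 786 fragments behind the NTC value and 113 behind that of shGldc at the depths given above. Among 11969 genes compared between the pair, Pou3f1 ranked 140 by how much lower it was in shGldc.

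Pou3f1 has a single exon at chr4:124656807-124660655 on the plus strand. None of its 50-nucleotide stretches occurs in another annotated gene, while 330 of its exon bases overlap the antisense gene Gm2164. Its paralogs did not share its level: in the stem cell libraries Pou3f2 was at 0 to 0.0324, Pou3f4 at 0 to 0.288, and Pou3f3 at 0.13 to 1.07. The nearest profiles over the 5 libraries were those of H2-Q7 at a distance of 0.33, Jph3 at 0.56, and Stag3 at 0.59. H2-Q7 belongs to a family of near-identical histocompatibility genes, so its own value is uncertain.

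Tcf15, a basic helix-loop-helix factor known from somite formation and from mESCs primed for differentiation, was at an FPKM of 0.0996 in MEFs, 256.1 in iPSCs, 231.4 in untreated V6.5 cells, 75.9 in NTC, and 22.0 in shGldc. It was among the more abundant RNAs of the first table's stem cells, ranked 295 of 24421 genes in iPSCs and 337 in V6.5 cells, but 1189 in NTC and 3672 in shGldc. The values step down in that order, by 3.05-fold from V6.5 cells to NTC, across tables, and by 3.45-fold from NTC to shGldc, within a table. In shGldc 29.0% of the NTC level was left, with a log2 ratio of -1.78 and a rank of 361 among 11969 genes by how much lower it was.

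The MEF value of Tcf15 rests on about 2 fragments. The ratio of V6.5 cells to MEFs was 2322, with a rough range of 643 to 19190. That of iPSCs to MEFs was 2570, with a range of 711 to 21240. These ranges use Poisson limits on the MEF count alone, rounded to 2 from 2.41, and leave out counting error in the stem cell libraries. The gene, at chr2:152143561-152149097 on the plus strand, has 2 exons and a transcript of 980 nucleotides, shares no 50-nucleotide stretch with another gene, and overlaps no annotated gene. Its nearest annotated gene on the lower-coordinate side, Srxn1, was at 17.7 in MEFs, 50.7 in iPSCs, 35.5 in V6.5 cells, 10.8 in NTC, and 12.1 in shGldc. From iPSCs to V6.5 cells to NTC, Srxn1 stepped down in the same order as Tcf15. Unlike Tcf15, it was not lower in shGldc than in NTC, and it was higher in MEFs than in NTC and shGldc.

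Of the 7 in the somite list, 3 were at an FPKM of at least 1 in iPSCs and 2 in each of V6.5 cells, NTC, and shGldc. Their summed FPKM was 21.3, 7.15, 4.67, and 6.39 in these libraries and 64.5 in MEFs, where Tcf15 was lowest, but 53.5 of the MEF sum was Twist1, a gene of mesenchyme in general. Without Twist1 the sums were 9.48, 4.38, 2.57, and 2.74 in the stem cell libraries and 11.04 in MEFs. Mesp2, a gene of somite segmentation, was listed at 0 in MEFs, was highest in iPSCs, as Tcf15 was, at 6.998, and was at 2.88 in V6.5 cells, 1.10 in NTC, and 1.98 in shGldc. The nearest profile to that of Tcf15 was that of Fgf4, the growth factor made by naive cells, at a distance of 1.39. Fgf4 was at an FPKM of 81.2 in iPSCs, 101.8 in V6.5 cells, 59.9 in NTC, and 18.0 in shGldc. Grb7 followed at 1.52 and Gm7325 at 1.85.

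Foxd3, a forkhead factor of the epiblast that is needed to maintain pluripotent cells and later the neural crest, was at an FPKM of 1.03 in MEFs, 10.2 in iPSCs, 6.22 in untreated V6.5 cells, 12.8 in NTC, and 10.0 in shGldc. It was the only one of the 7 genes at an FPKM of at least 1 in all 5 libraries, and the only one higher in NTC than in V6.5 cells by the 2-fold rule, at 2.05-fold, just past the threshold. Of 6 neural crest genes, 1 was at an FPKM of at least 1 in iPSCs, 1 in V6.5 cells, 3 in NTC, 0 in shGldc, and 5 in MEFs, where Foxd3 was lowest. Sox10 was at 2.81 in iPSCs, 1.78 in V6.5 cells, 1.59 in NTC, and 0.0513 in shGldc. A miRNA gene, Gm23366, overlaps 89 bases of the single exon of Foxd3 at chr4:99656299-99658622, and 2.59% of the 50-nucleotide stretches of Foxd3 are shared, with Gm23366 and the forkhead gene Foxd4. Foxd4 itself was between 0 and 0.399 in all 5 libraries. The nearest profiles were those of Manba at a distance of 0.33, Clca3b at 0.38, and Maats1 at 0.39.

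Zic2 encodes a zinc finger factor that works at enhancers of pluripotent cells and in forebrain patterning. Its FPKM was 0.975 in MEFs, 4.24 in iPSCs, 14.7 in untreated V6.5 cells, 15.0 in NTC, and 20.0 in shGldc. Thus all 3 libraries of the V6.5 line were above the iPSCs, the untreated cells by 3.48-fold, and Zic2 was the one gene of the 7 with its highest value in shGldc, at 1.33 times NTC, which is below the 2-fold rule. The processed transcript 2610035F20Rik lies 236 bases away on the other strand. It was at 0.142 in MEFs, 0.302 in iPSCs, 1.59 in V6.5 cells, 1.96 in NTC, and 2.51 in shGldc, the same order of libraries as Zic2.

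Zic5, on the same chromosome as Zic2, was at an FPKM of 1.22 in iPSCs, 4.79 in V6.5 cells, 3.34 in NTC, and 2.68 in shGldc, so both Zic2 and Zic5 were lowest in iPSCs among the stem cells. Zic1 was at 3.31 in MEFs and at most 0.754 in the stem cells. Zic2 lies at chr14:122475435-122479852 and shares no 50-nucleotide stretch with another gene. Its nearest profiles were those of Pxt1 at 0.59, Haao at 0.62, and Hist1h2ai at 0.62, the last a histone gene with near-identical copies.

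Grhl2, a grainyhead factor that opens enhancers of epithelial genes and serves the primed epiblast, was listed at 0 in MEFs and was at an FPKM of 3.38 in iPSCs, 0.861 in untreated V6.5 cells, 0.49 in NTC, and 0.895 in shGldc. iPSCs were 3.92-fold above V6.5 cells, from about 370 and 105 fragments, a call that is lost when entry needs an FPKM of 5, which Grhl2 does not reach. The other 3 stem cell libraries all lay below an FPKM of 1. Grhl3 was the more abundant member of the family, at 14.1 in iPSCs, 18.3 in V6.5 cells, 11.8 in NTC, and 12.0 in shGldc, while Grhl1 was at 3.16, 2.32, 1.40, and 1.07. Grhl2 spans chr15:37233036-37363569 with 16 exons in its longest transcript, of which 169 bases overlap the antisense gene Gm16136. The profiles nearest to it were those of Hormad1 at 0.52, Rnf39 at 0.53, and Elovl7 at 0.55.

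Epithelial genes of the kind that GRHL2 is known to regulate were measured in a list of 13, of which 12 entered the comparison of iPSCs with V6.5 cells. There, 5 were higher in iPSCs and 0 lower, beside 10.1% of all genes higher and 7.44% lower. Their median log2 ratio was 0.48 against 0.04 for all genes compared. The 5 were the keratins Krt8 (4.09) and Krt18 (3.49), the claudin Cldn4 (1.99), Ap1m2 (1.54), and Ovol2 (1.02), and Esrp1 had the lowest ratio at -0.37. A rise in this pair was not limited to epithelial genes. Of 4 endoderm genes that entered, 3 were higher in iPSCs and 0 lower, from Dab2 at 0.17 to Gata6 at 2.61, with a median of 1.74. E-cadherin, the junction protein Cdh1, was at 94.2 in iPSCs and 101.8 in V6.5 cells. In NTC against V6.5 cells, where Grhl2 was at 0.49 and 0.861, 7 of 12 were lower and 0 higher, beside 10.3% of all genes lower and 4.99% higher, with a median of -1.02 against -0.06 for all genes. In shGldc against V6.5 cells, where Grhl2 was at 0.895 and 0.861, 4 of 12 were lower and 2 higher, beside 13.9% and 9.89% of all genes, with a median of -0.74 against -0.02. Both pairs cross the tables. Within a table, in shGldc against NTC, Grhl2 was at 0.895 and 0.49. There, 4 of 12 epithelial genes were higher and 0 lower, beside 8.97% and 7.68% of all genes, with a median of 0.37 against 0.04. The summed FPKM of the list was 487 in V6.5 cells, 265 in NTC, and 485 in shGldc, so the sum and the median differ for shGldc against V6.5 cells. The shGldc sum leans on the 2 higher genes, Krt18 at 95.4 and Krt8 at 79.4. They were at 20.8 and 9.98 in V6.5 cells and at 11.9 and 9.09 in NTC. Grhl2 was below an FPKM of 1 in all 3 of these libraries. The part of Grhl2 in the levels of these epithelial genes was not tested.

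**Figure D3:**
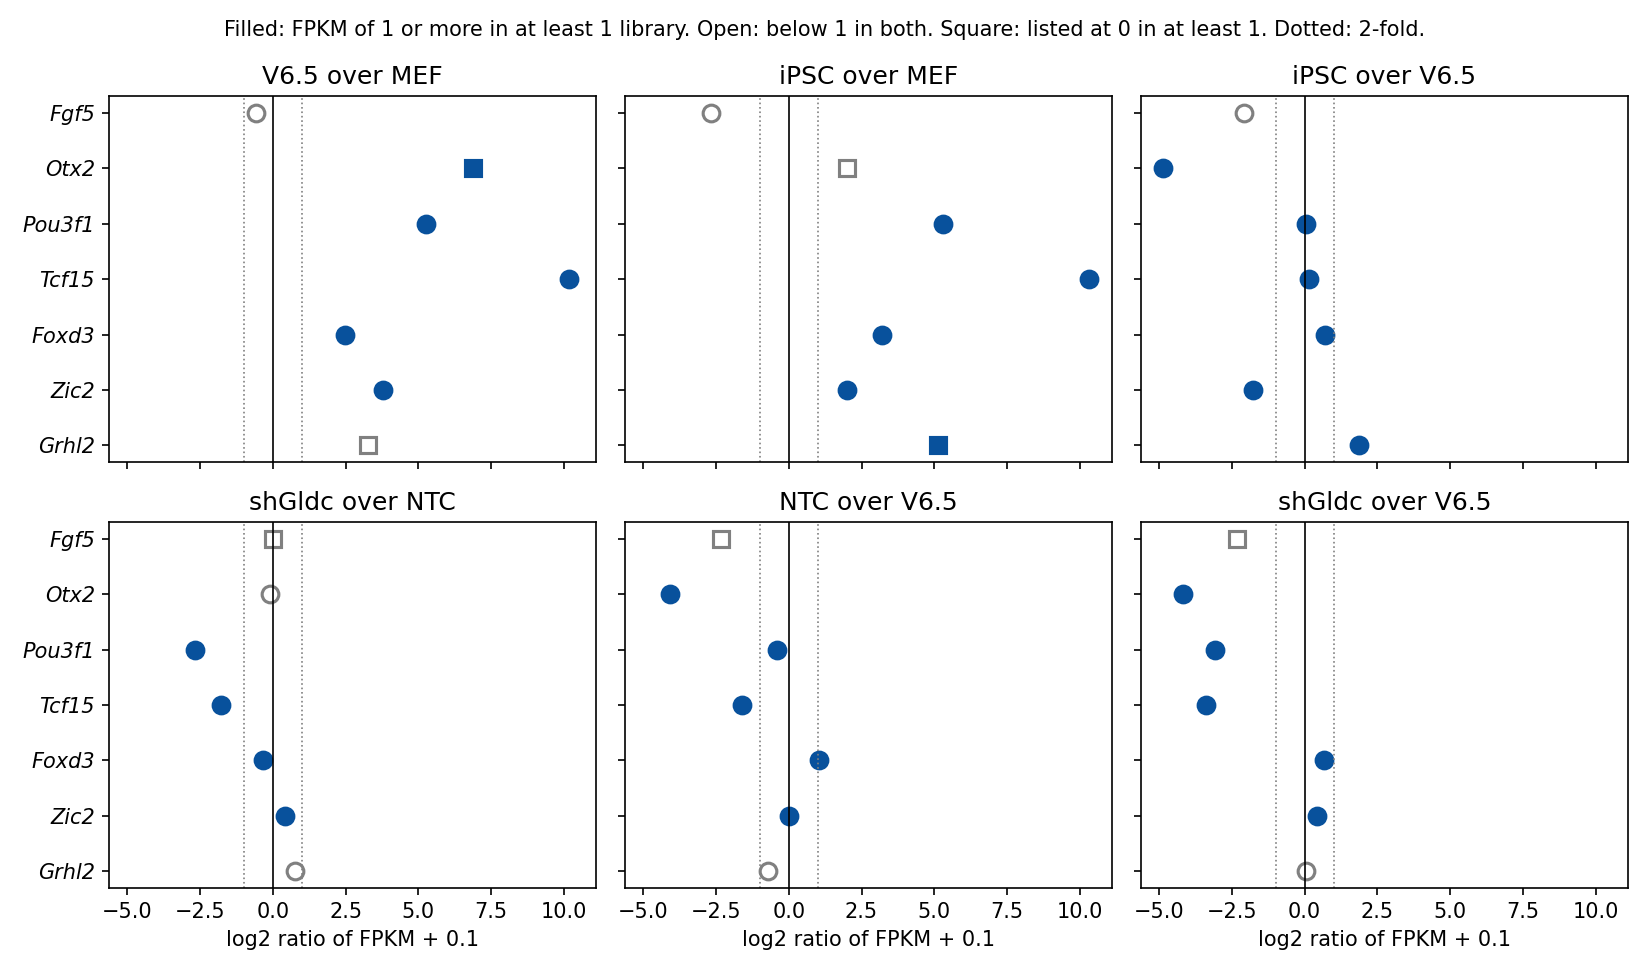
Ratio of each of the 7 genes in the 6 comparisons, as a difference of log2(FPKM + 0.1), with filled points for genes that entered the comparison, open points for genes below 1 in both, squares where a library lists 0, and dotted lines at 2-fold. In shGldc over NTC only Pou3f1 (-2.68) and Tcf15 (-1.78) lie past the lower line, and in iPSC over V6.5 Otx2 lies at -4.85.

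In the comparison of stem cells with MEFs, 5 of the 7 genes entered and 5 were higher in V6.5 cells, where 30.3% of the 12840 genes compared were higher and 23.3% lower. The 5 were Otx2, listed at 0 in MEFs, and Tcf15 (10.18), Pou3f1 (5.25), Zic2 (3.79), and Foxd3 (2.48). In iPSCs against MEFs 5 entered and 5 were higher, with 31.5% of 13032 genes higher and 21.3% lower. These were Grhl2, listed at 0 in MEFs, and Tcf15 (10.33), Pou3f1 (5.29), Foxd3 (3.19), and Zic2 (2.01). Except for Foxd3 at 1.03, the genes passed the entry threshold only through their stem cell value, so these counts describe and do not test. The median over all genes compared was shifted by 0.25 for V6.5 cells and 0.31 for iPSCs, which is small beside the ratios of these genes. The 2 comparisons share the MEF library.

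Other formative and primed genes, a list of 18, were mixed in the same contrast. Of 16 that entered, 11 were higher in V6.5 cells and 3 lower, with Nodal, the ligand that supports the primed state, highest at 9.03 and Cdh2, N-cadherin, lowest at -5.06. In iPSCs 15 entered, 8 were higher and 4 lower, again with Nodal (9.86) and Cdh2 (-5.79) at the ends. The naive list was more uniform, with 13 of 14 higher in V6.5 cells and 14 of 14 in iPSCs. The core pluripotency list was higher in both, 6 of 6 each.

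Between iPSCs and V6.5 cells, 6 of the 7 genes entered, of which 1, Grhl2, was higher in iPSCs and 2, Otx2 and Zic2, were lower. Of all 12323 genes compared, 10.1% were higher and 7.44% lower. Pou3f1 (0.04), Tcf15 (0.15), and Foxd3 (0.71) were below the 2-fold rule. The Pou3f1 ratio takes the other sign when libraries are rescaled to 1 FPKM sum or ratios are centred on their median. Of the other formative and primed genes 15 entered, with 2 higher in iPSCs, 6 lower, and a median of -0.12. Lef1, a Wnt effector, was the lowest at -2.33 and Etv4, an ETS factor downstream of FGF signalling, the highest at 2.18. The de novo methyltransferase Dnmt3a was at 5.40 in iPSCs and 23.2 in V6.5 cells, while Dnmt3b was at 32.4 and 24.5.

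FGF ligands and receptors, Fgf5 included, held 8 genes that entered between iPSCs and V6.5 cells, 1 higher and 2 lower in iPSCs. Fgf15 was the lowest at -3.24, followed by Fgf17 at -2.39, and Fgfr4 was the highest at 1.19. Core and naive genes showed no common direction, with 0 of 6 core genes past 2-fold, from Lin28a at -0.77 to Sox2 at 0.35, and 3 of 14 naive genes higher and 3 lower. Dppa3, a naive and germline gene, was at 14.4 in iPSCs and 60.6 in V6.5 cells, and Klf5 at 146.5 and 35.8.

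**Figure D4:**
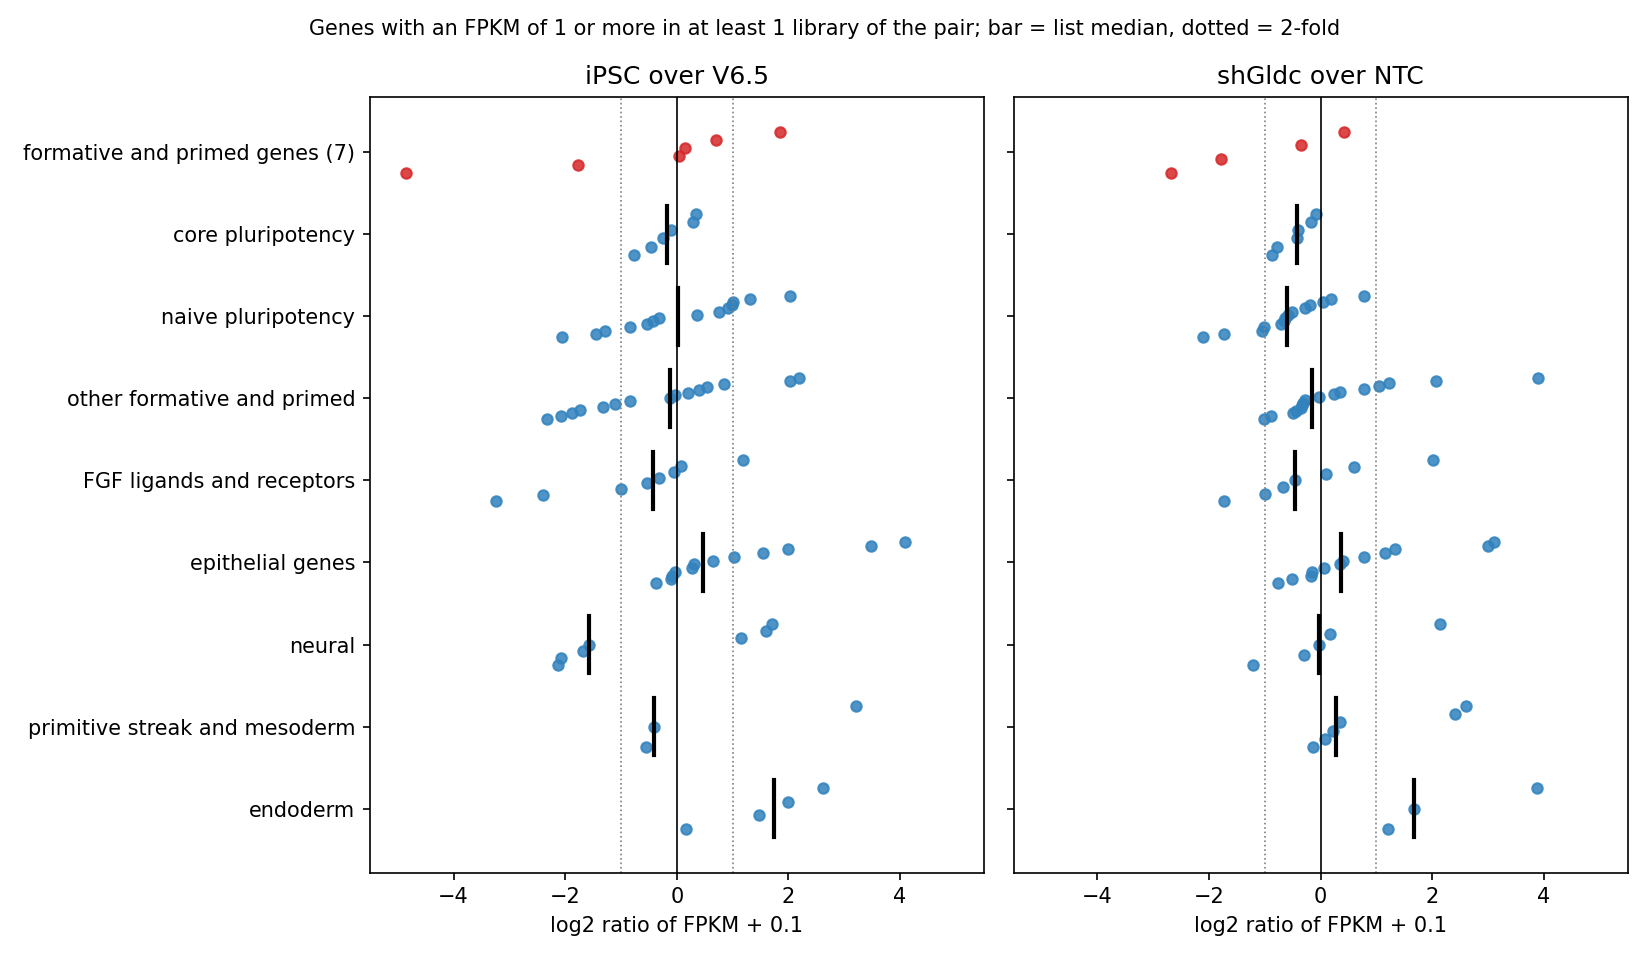
Difference of log2(FPKM + 0.1) for each gene of 9 groups, in iPSCs over V6.5 cells and in shGldc over NTC, with 1 point per gene, the 7 genes in red, bars at the list medians, and dotted lines at 2-fold. In shGldc over NTC the naive list has its median at -0.61, while the other formative and primed genes range from -1.01 to 3.90.

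Gldc knockdown was compared with NTC within a table. Of the 7 genes 4 entered, 0 were higher and 2 lower in shGldc, Pou3f1 and Tcf15, where 8.97% of 11969 genes were higher and 7.68% lower. Foxd3 (-0.35) and Zic2 (0.41) were below the 2-fold rule. Otx2, at 0.592 and 0.549, and Grhl2, at 0.49 and 0.895, were below an FPKM of 1 in both libraries, and Fgf5 was listed at 0 in both. The lower ratios of Pou3f1 and Tcf15 were therefore not shared by Foxd3 and Zic2, which were at intermediate levels in the same libraries.

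The other formative and primed genes also divided. Of 16 that entered, 4 were higher in shGldc and 1 lower, with a median of -0.15 against 0.04 for all genes. Wnt8a, a Wnt ligand of the primitive streak, was at an FPKM of 0.883 in NTC and 14.6 in shGldc, the highest ratio of the list at 3.90. Lef1 was at 1.11 and 5.01, Sox3 at 13.4 and 27.8, and Cdh2 at 1.14 and 2.82. The gene that was lower was Etv4, at 109.0 and 53.9.

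The naive list leaned lower, with 4 of 14 lower in shGldc, 0 higher, and a median of -0.61. The 4 were Tcl1 (-2.11), Fgf4 (-1.73), Nr0b1 (-1.05), and Gbx2 (-1.01), and Dppa3 had the highest ratio at 0.78. The 6 core genes had a median of -0.42 with 0 past 2-fold in either direction, from Utf1 at -0.87 to Sall4 at -0.08, and Pou5f1 was at 1215 in NTC and 915 in shGldc. FGF ligands and receptors held 7 genes that entered, with Fgfr2 higher (2.01), Fgf4 lower, and a median of -0.47. Of the paralogs of the 7 genes 9 entered, 0 higher and 3 lower, namely Foxd2 (-3.45), Fgf4, and Tcf24, at 1.27 and 0.375, while Scx had the highest ratio at 0.29.

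Markers of other lineages moved with this pair of libraries. The summed FPKM of the primitive streak and mesoderm list was 22.4 in NTC and 54.4 in shGldc, with 2 of 6 genes higher, and Cdx2, a factor of trophoblast and posterior mesoderm, at 5.41 and 33.3. Without Cdx2 the sums were 17.0 and 21.1. The brachyury gene T was at 4.33 and 5.08, and Mixl1 had the lowest ratio at -0.13. The endoderm sum was 4.10 and 20.2, with 3 of 3 genes that entered higher, from Dab2 at 1.20 to Gata6 at 3.89. Epithelial genes held 4 higher of 12, Krt8 (3.11) and Krt18 (2.99) leading and Rab25 lowest at -0.77. The neural sum was 56.7 and 53.3, with 1 of 5 higher, Neurog1 (2.14), and 1 lower, Olig2 (-1.21), and without Tubb3 it was 24.2 and 16.7. The part of these lineages in the Pou3f1 and Tcf15 values was not tested.

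NTC and shGldc were also set beside untreated V6.5 cells, across the tables. In NTC 5 of the 7 genes entered, with 1, Foxd3 (1.03), higher and 2, Otx2 (-4.07) and Tcf15 (-1.61), lower, where 4.99% of 12048 genes were higher and 10.3% lower. Pou3f1 (-0.40) and Zic2 (0.02) were below the 2-fold rule. In shGldc 5 entered, with 0 higher and 3, Otx2 (-4.16), Tcf15 (-3.39), and Pou3f1 (-3.08), lower, where 9.89% of 12237 genes were higher and 13.9% lower. Foxd3 (0.68) and Zic2 (0.44) were below it. Otx2 was at 0.304 in iPSCs, 0.592 in NTC, and 0.549 in shGldc, while Pou3f1 was low in the Gldc shRNA library alone among stem cells, and Tcf15 was lower in NTC and lower again in shGldc. The presence of a vector and the separate making of the tables cannot be told apart in these comparisons, which also share the V6.5 library.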

How the data were processed

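RNA was extracted with TRIzol, libraries were made with a NEBNext Ultra kit, and sequencing was on an Illumina HiSeq instrument. The authors mapped reads to mm10 with TopHat2 (2.1.0), assembled transcripts with StringTie (1.3.4d), and computed expression with Ballgown. The submitters' processing notes also name SAMtools (1.7) and mm9, without a role. The authors deposited FPKM values in 2 tables of 24421 genes, with no counts, so FPKM cannot carry a count test. The gene annotation and strand setting are not given in the sources used here.

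From the FPKM values, log2(FPKM + 0.1) differences were taken between libraries for genes that reached an FPKM of 1 in either one. With 1 library per group no test was run. The 7 genes and the 13 lists were chosen with earlier results of these data known. The genes with the highest and the lowest ratio of each list were to be named. This was done for the lists described in iPSCs against V6.5 cells and in shGldc against NTC, and in part elsewhere. Other list genes given, and the list sums without 1 gene, were picked after their values were seen. For each of the 7 genes, the 3 genes nearest in profile, the overlapping and neighbouring genes, and the paralogs were looked up, with examples of these given. One gene of the lists is not reported here by name. Depth was estimated from 5723 genes with 1 GENCODE M21 transcript, from the step between low values of FPKM times transcript length. The step used was the one that fitted most values within a search from 0.03 to 0.06, and larger steps were not searched. Fragments of a gene use its longest transcript. Gene positions are from GENCODE M21, and start-site sequences from RefSeq (GRCm38.p6). Scripts were tested on simulated data. Python 3.11.15, pandas 2.3.3, numpy 2.4.6, scipy 1.17.1, and matplotlib 3.10.9 were used.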

Additional observations from a re-analysis of the deposited data

How the results depend on the processing

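Of 108 recomputed counts of the 7 genes, 99 stayed within 1.5 times of the reported count and 110 of 112 recomputed log2 ratios kept their sign, the exceptions being Pou3f1 in iPSCs against V6.5 cells, at -0.02 under rescaling and -0.001 after centring, from 0.04. With an FPKM of at least 5 for entry, 3 genes were higher in iPSCs than in MEFs and 0 were higher in iPSCs than in V6.5 cells, where Grhl2 no longer entered. Without any filter, 1 gene, Fgf5, was lower in iPSCs than in MEFs. With a 1.5-fold rule, 2 genes (Foxd3 and Grhl2) were higher in iPSCs than in V6.5 cells and 1 (Foxd3) was higher in shGldc than in V6.5 cells. With a 3-fold rule, or a pseudocount of 1, 0 genes were higher in NTC than in V6.5 cells, so the Foxd3 call there depends on both. In MEFs, 2 genes were at an FPKM of at least 1 after rescaling to the same FPKM sum and 3 were at 0.5 or more. In shGldc, where Pou3f1 was at 1.01, the count of 4 became 3 after rescaling and 6 at 0.5 or more. The lower calls of Pou3f1 and Tcf15 in shGldc against NTC were 2 under each of the 8 alternatives tried. By size, 18 of the 112 ratios moved by more than 0.59, the spread of log2 ratios between NTC and V6.5 cells, 14 of them with a pseudocount of 1 and 4 with 0.01. With a pseudocount of 1, Tcf15 in V6.5 cells against MEFs went from 10.18 to 7.72, Pou3f1 there from 5.25 to 3.17, Otx2 in iPSCs against V6.5 cells from -4.85 to -3.27, and Pou3f1 in shGldc against NTC from -2.68 to -2.00. With 0.01, Tcf15 in V6.5 cells against MEFs was at 11.04 and Pou3f1 at 5.89. No paired analysis was possible because each group has 1 library. Values near 3 fragments, such as Tcf15 in MEFs and Fgf5 in iPSCs, are limited by depth.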
